A study of Mus musculus with 8 samples.

Results

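The fibrillar collagen chains examined here were 7 of the 18534 genes and other features measured in mouse liver: Col1a1, Col1a2, Col3a1, Col5a1, Col5a2, Col5a3 and Col27a1. They were chosen as the chains of this family with a detectable probe on the array, matched by the gene name that the scanner files give, and each had 1 probe with 1 spot. All 7 passed the filter on dim probes, which asked that 4 or more of the 8 arrays show a signal well above background. Of the other fibrillar chains on the array, Col2a1, Col11a1, Col11a2 and Col24a1, known mainly from skeletal tissue, were well above background on 0 arrays.

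Livers came from male mice given CCl4 (carbon tetrachloride, a liver toxin) or TAA (the labels' abbreviation) for 5 weeks to induce fibrosis. The animals were then observed for 1 or 2 weeks, with either a negative control nucleotide (NC) or miR-29a injected every 3 days. Toxin (CCl4 or TAA), week (1 or 2) and nucleotide (NC or miR-29a) were crossed to give 8 groups, with 1 liver RNA sample and 1 one-colour array in each. Every group had been given a toxin and an injected nucleotide, and no untreated liver was among the samples. Neither age nor strain is in the labels, and a sample may have been a single animal or a pool. Replicate error within a group could therefore not be measured. Limma's errors and p-values rest only on how far these 8 samples depart from the fitted model. Interactions that a fit leaves out are counted in that spread.

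Fibrillar collagens form the rope-like fibrils of scar tissue. Type I collagen joins chains made by Col1a1 and Col1a2, and type III collagen is built of Col3a1 chains alone. Type V collagen, made from Col5a1, Col5a2 and Col5a3, starts fibrils and limits their width, and Col27a1 encodes a chain known mainly from cartilage. In injured liver, activated stellate cells and portal fibroblasts are the known main sources. MicroRNAs of the miR-29 family are known to pair with collagen messenger RNAs through their seed and to lower them.

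The injected microRNA is shown first because its seed is the part that pairs with a target. The 3 mature strands of the family in the RefSeq table (GRCm38.p6) share 1 seed, bases 2 to 8, printed in capitals:
mmu-miR-29a-3p: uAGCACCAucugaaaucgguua
mmu-miR-29b-3p: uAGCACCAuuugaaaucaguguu
mmu-miR-29c-3p: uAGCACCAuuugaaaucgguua
The strands of miR-29a and miR-29c differ at 1 base of 22. The letters TGGTGCT, the DNA complement of the seed, were searched on both strands of the 60-base array probes. They were in 0 of the 7 probes of the collagen chains and in 0.982% of all 55681 probes. A probe is a short stretch of a transcript, so this says nothing about sites elsewhere in the messenger RNA.

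Promoters are shown for 4 chains, a pair that lay lower at 2 weeks (Col1a2, Col3a1) and a pair whose mean lay higher (Col5a3, Col27a1), as described further on. RefSeq's table held the promoter of 5 of the 7 chains, those of Col1a2, Col3a1, Col5a1, Col5a3 and Col27a1. Each window runs from 250 bases before to 50 bases after the start of the gene, on the strand of the gene. Capitals mark 3 motifs that were searched on both strands, with no overlap among the matches found. The TATA box was searched as TATAAA. The CCAAT box was searched as CCAAT, its own name. For the GC box, a known Sp1 site, the letters were GGGCGG. The windows lie at chr6:4505368-4505667 (plus strand, Col1a2), chr1:45311288-45311587 (plus strand, Col3a1), chr9:20815018-20815317 (minus strand, Col5a3) and chr4:63215162-63215461 (plus strand, Col27a1) of GRCm38.p6:
Col1a2: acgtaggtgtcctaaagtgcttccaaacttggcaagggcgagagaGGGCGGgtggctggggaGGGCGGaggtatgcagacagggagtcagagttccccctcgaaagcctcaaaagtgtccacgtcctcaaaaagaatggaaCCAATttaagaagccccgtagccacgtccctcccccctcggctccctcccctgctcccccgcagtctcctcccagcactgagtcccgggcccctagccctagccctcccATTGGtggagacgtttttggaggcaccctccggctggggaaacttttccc
Col3a1: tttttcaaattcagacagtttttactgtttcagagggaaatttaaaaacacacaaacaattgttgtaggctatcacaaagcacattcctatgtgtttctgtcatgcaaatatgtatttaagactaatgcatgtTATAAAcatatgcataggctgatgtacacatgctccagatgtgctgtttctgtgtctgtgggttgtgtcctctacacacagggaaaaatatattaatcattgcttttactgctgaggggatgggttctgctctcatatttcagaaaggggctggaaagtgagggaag
Col5a3: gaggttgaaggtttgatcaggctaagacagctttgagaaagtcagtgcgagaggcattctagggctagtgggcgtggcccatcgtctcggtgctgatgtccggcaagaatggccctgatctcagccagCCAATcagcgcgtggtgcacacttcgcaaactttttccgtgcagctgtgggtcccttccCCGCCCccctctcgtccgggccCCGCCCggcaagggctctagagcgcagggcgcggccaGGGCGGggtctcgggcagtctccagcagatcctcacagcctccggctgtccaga
Col27a1: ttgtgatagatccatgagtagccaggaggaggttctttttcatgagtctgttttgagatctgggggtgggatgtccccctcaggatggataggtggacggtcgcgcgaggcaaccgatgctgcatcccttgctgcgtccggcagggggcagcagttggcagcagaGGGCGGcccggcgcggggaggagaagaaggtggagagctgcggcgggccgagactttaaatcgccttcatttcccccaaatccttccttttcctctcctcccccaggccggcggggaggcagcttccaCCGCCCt
The Col1a2 window held 2 CCAAT matches and 2 GC boxes, and the Col5a3 window 1 CCAAT match and 3 GC boxes. Col3a1 held 1 TATA match and neither of the others, and was 37.7% G and C, against 61% for Col1a2, 63.3% for Col5a3 and 61.7% for Col27a1. Col27a1 held 2 GC boxes only, as did Col5a1, which was 75% G and C. Of all 32851 promoter windows that RefSeq's table holds, 37.4% had a CCAAT match, 35.7% a GC box and 13.6% a TATA match, and the median was 52.7% G and C. The pair that lay lower thus shared none of these 3 motifs, and a match is a description of letters and not of binding.

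The array probes lie, on mm9 as the files give it, at chromosome 11, 94813115 to 94813174 for Col1a1, chromosome 6, 4490619 to 4490678 for Col1a2 and chromosome 1, 45405589 to 45405648 for Col3a1, all on the plus strand. The type V probes lie at chromosome 2, 27892892 to 27892951, plus strand, for Col5a1, chromosome 1, 45431204 to 45431263, minus strand, for Col5a2 and chromosome 9, 20574592 to 20574651, minus strand, for Col5a3. The Col27a1 probe lies at chromosome 4, 62995485 to 62995544, plus strand. The files name the gene of each probe, and exon boundaries were not used here.

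The share of spots well above background was 43.9% to 48.4%, with 0 spots saturated. All arrays were on 1 slide and from 1 scan, with the CCl4 arrays in 1 column of the slide and the TAA arrays in the other, so agent and slide column cannot be told apart. In both columns rows 1 and 2 held the 1-week arrays and rows 3 and 4 the 2-week arrays. NC was in rows 1 and 3 and miR-29a in rows 2 and 4. Week and nucleotide thus cannot be told apart from slide row either. In bulk liver, fewer cells of a type and less RNA per cell cannot be told apart. Hepatocyte markers, the check of the label liver, had a summed level between 7574 and 9459 times the array's 75th percentile. The TAA 1-week NC array stood apart in immune cells: its 4 measured neutrophil markers summed to 313, against 4 to 8.61 on the other arrays, and its 7 Kupffer cell markers to 295.0, against 36.8 to 67.5. S100a9 (a log2 level of 7.89), S100a8 (6.02) and Camp (3.27) carried the neutrophil sum, while Ly6g at −0.026 lay within its range on the other arrays. All 7 Kupffer cell markers were highest there. The CCl4 1-week NC array stood apart in markers of the mesothelial cells of the liver capsule, whose 6 measured genes of 11 summed to 16.4, against 1.68 to 5.81 elsewhere, with all 6 highest there. Values that move most without either array are given both ways.

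Levels are log2 of the processed spot signal minus the 75th percentile of the array, so 0 is that percentile and a difference of 1 is 2-fold. Signals of different probes are not compared, since each probe binds its target with its own strength. The error that the scanner software gives for 1 spot was 0.144 to 0.145 on this log2 scale for the type I chains, and reached 0.50 for Col5a2 and 0.43 for Col27a1.

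The type I chains were highest on the CCl4 1-week NC array. The level of Col1a1, the chain that most of type I collagen consists of, was 2.80 there and 1.41 on its miR-29a partner, 0.80 (NC) and 0.78 (miR-29a) under CCl4 at 2 weeks, 1.46 and 1.71 under TAA at 1 week, and 0.95 and 1.13 under TAA at 2 weeks. The 4 arrays of 1 week were all above the 4 of 2 weeks, and 1 array, CCl4 1-week NC, stood 1.09 above the next. The remaining neighbours in the order lay closer together than 0.45, the residual SD of the fit. Here and below that SD is the one limma moderates over all features. It is the spread of 1 array, and a gap between 2 arrays varies more than that. A gap over the SD is therefore a description and not a test that an array stands apart. Col1a2, its partner chain, had levels of 4.28, 3.41, 2.80, 2.80, 3.24, 3.43, 2.94 and 3.13 in the same order of arrays. Again the weeks did not overlap and only the top array stood off its neighbour, by 0.85 against a residual SD of 0.35.

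Col3a1, the type III chain, had levels of 3.96 and 3.20 on the CCl4 1-week arrays, 2.51 and 2.61 on the CCl4 2-week arrays, 3.61 and 3.73 on the TAA 1-week arrays and 2.69 and 2.84 on the TAA 2-week arrays (NC and miR-29a in each pair). The weeks did not overlap. Unlike in the type I chains, the top array lay only 0.23 above the next, within the residual SD of 0.26. Gaps over that SD set the CCl4 1-week miR-29a array off from the 3 arrays above it (0.42) and from the 2-week arrays (0.36).

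The type V chains did not follow 1 pattern. Col5a1, the chain found in most type V molecules, ranged only from −1.06 (CCl4 2-week miR-29a) to −0.24 (CCl4 1-week NC), with the other 6 arrays between −0.79 and −0.57. Only the gaps at the top (0.33) and the bottom (0.27) exceeded its residual SD of 0.25. Col5a2, its usual partner, was at −1.98 on CCl4 1-week NC and between −3.89 and −2.66 elsewhere. Its top gap, 0.68, was the only one over the residual SD of 0.47. It was not well above background on TAA 1-week miR-29a and TAA 2-week NC. Col5a3, a chain of a less common type V form, had levels of 2.27 and 2.06 on the CCl4 1-week arrays, 3.57 and 2.88 on the CCl4 2-week arrays, 2.85 and 3.78 on the TAA 1-week arrays and 3.79 and 3.77 on the TAA 2-week arrays (NC, then miR-29a). It was thus lowest on both CCl4 1-week arrays. Its 8 levels parted at 2 gaps over the residual SD of 0.40, one of 0.58 above these 2 arrays and one of 0.69 between 2.88 and 3.57.

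Col27a1 had the widest range, 3.46 on the log2 scale. Its levels were −1.87 and −2.32 on the CCl4 1-week arrays, −0.34 and −0.42 on the CCl4 2-week arrays, −3.13 and 0.33 on the TAA 1-week arrays, and −1.15 and −0.61 on the TAA 2-week arrays (NC, then miR-29a). The lowest value, on TAA 1-week NC, was not well above background. No gap between neighbours in its order exceeded the residual SD of 0.93.

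**Figure D1:**
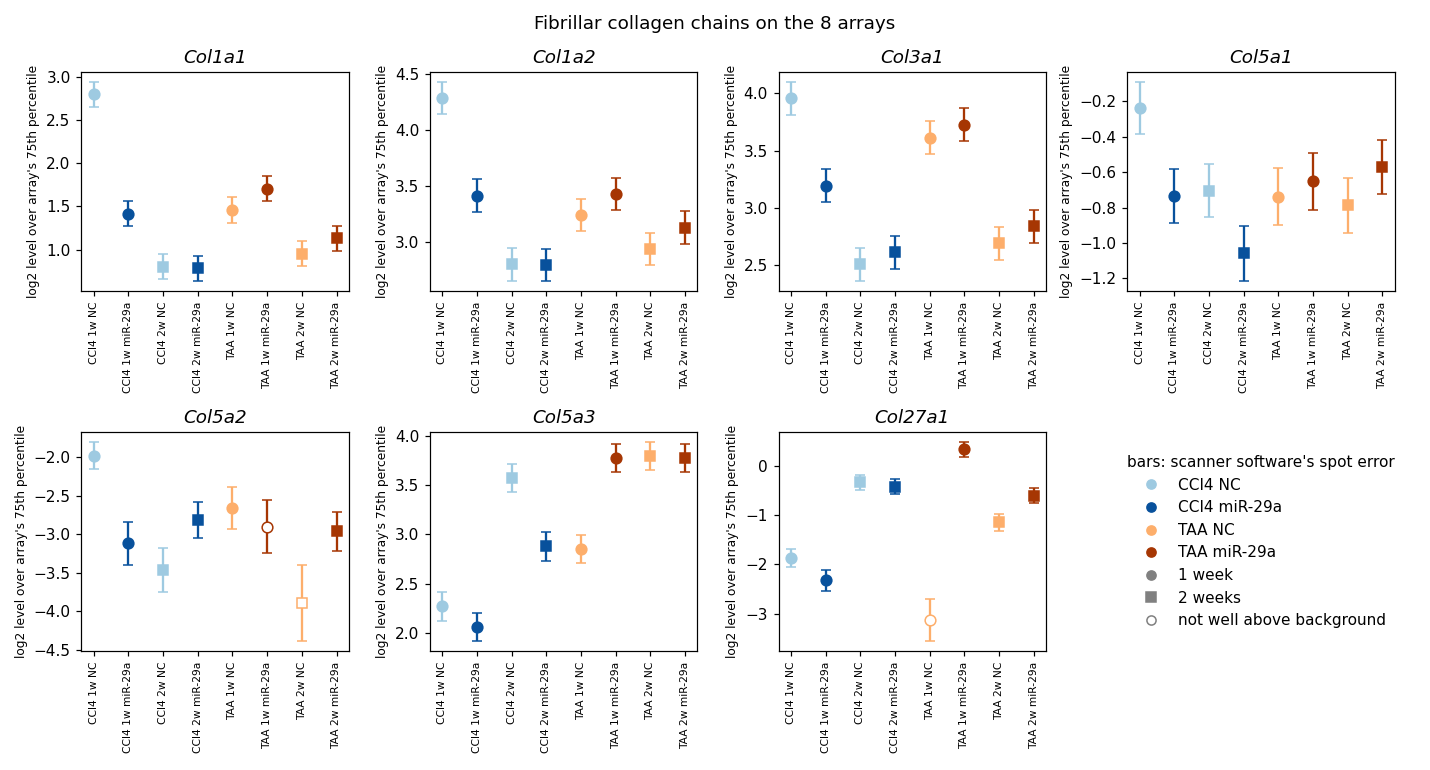
Level of each fibrillar collagen chain on each of the 8 arrays (log2 of the signal over the array's 75th percentile; 1 array per group), with bars for the error of the spot given by the scanner software and open symbols where the spot was not well above background. Circles (1 week) of Col1a1, Col1a2 and Col3a1 all sit above the squares (2 weeks), while Col5a3 is lowest on the 2 CCl4 1-week arrays at 2.06 and 2.27.

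Setting 2 weeks against 1 week asks how the chains stood as time passed after the toxin. Each difference is the mean of 4 matched pairs of arrays with its SE from limma's additive fit. Col1a1 had a difference of −0.93 ± 0.32, Col1a2 of −0.67 ± 0.25 and Col3a1 of −0.96 ± 0.18, each below 0 in 4 of 4 pairs, as 6.06% of all features were. These are 1.90-fold, 1.59-fold and 1.95-fold lower means at 2 weeks. Col5a3 had 0.77 ± 0.28 and Col27a1 1.12 ± 0.66, above 0 in 3 of 4 pairs each. Col5a1 was at −0.19 ± 0.18 and Col5a2 at −0.61 ± 0.34, each below 0 in 3 of 4 pairs. In each chain 1 of these pairs differed by less than the error of 1 spot, −0.048 for Col5a1 (TAA NC) and −0.059 for Col5a2 (TAA miR-29a). Both TAA pairs of Col5a2 held a spot not well above background. Without the CCl4 1-week NC array the means were −0.048 for Col5a1 and −0.33 for Col5a2.

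After Benjamini-Hochberg adjustment over all 18534 features, limma called 0 of the 7 chains, where the background of called features was 0%. The smallest adjusted p among them was 0.792, for Col3a1, and the smallest of all features was 0.777. At an unadjusted p under 0.05 there were 4 chains (Col1a1, Col1a2, Col3a1 and Col5a3), against 5.19% of all features. The levels of the 2 weeks did not overlap for 3 chains, all lower at 2 weeks, against 1.35% of features lower and 2.57% in either direction. The median over the 7 chains was −0.61, and that over all features was 0.029.

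The 4 pairs differed in size. For Col1a1 the 2-week minus 1-week difference was −1.99 in the CCl4 NC pair, −0.63 in the CCl4 miR-29a pair, −0.50 in the TAA NC pair and −0.57 in the TAA miR-29a pair. The first rests on the CCl4 1-week NC array, the one with the mesothelial marker sum of 16.4, and the other 3 lay close together. For Col1a2 the differences were −1.48, −0.61, −0.30 and −0.30 in the same order. For Col3a1 they were −1.45, −0.58, −0.92 and −0.89, more even between the agents. Without the CCl4 1-week NC array the means were −0.54 for Col1a1, −0.39 for Col1a2 and −0.78 for Col3a1, so the type I differences shrank by over 1.5 times and kept their sign. The part of capsule cells in these differences was not tested.

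For Col5a3 the pairs gave 1.31 and 0.82 under CCl4 and 0.94 and −0.0030 under TAA (NC, then miR-29a). The last pair differed by less than the error of 1 spot. For Col27a1 they were 1.53, 1.90, 1.98 and −0.94. The third of these rests on a dim array, and taken against the detection floor is at least 3.56-fold. Without the TAA 1-week miR-29a array, the means were 1.07 for Col5a3 and 1.92 for Col27a1. Without CCl4 2-week NC they were 0.52 and 0.73, without TAA 1-week NC Col27a1 was at 0.62, and without CCl4 1-week miR-29a at 0.64.

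**Figure D2:**
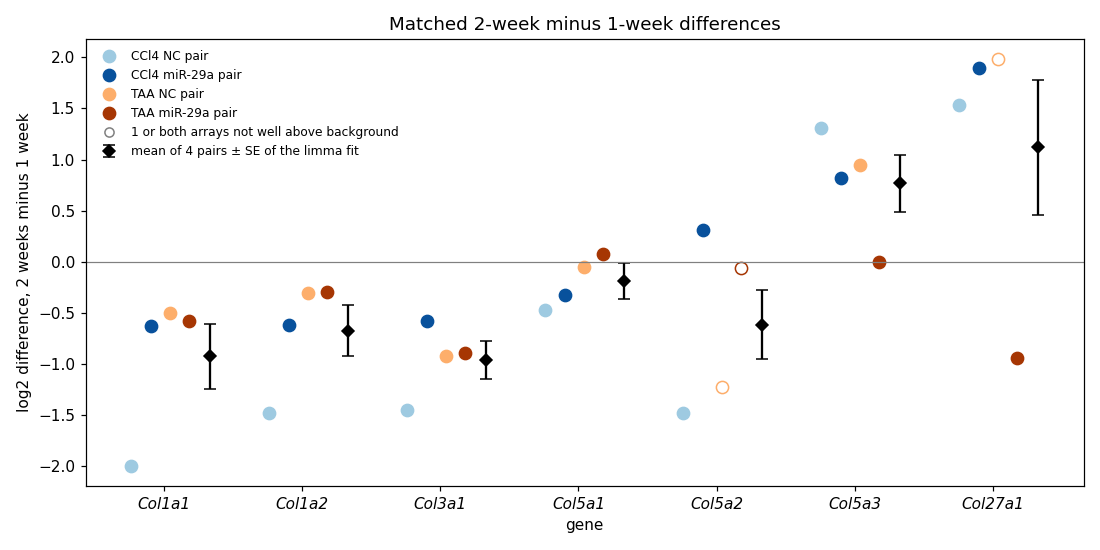
Difference of 2 weeks minus 1 week on the log2 scale for each chain, with 1 point per matched pair of arrays (open where 1 or both arrays were not well above background) and a diamond for the mean of 4 pairs ± SE of the limma fit. All 4 points of Col1a1, Col1a2 and Col3a1 lie below 0, and 3 of 4 points of Col5a3 and Col27a1 lie above it.

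Within 1 agent, 2 arrays of each week were compared in a fit with an agent by week term. Under CCl4, Col1a1 had a difference of −1.31 ± 0.42, Col1a2 of −1.05 ± 0.29, Col3a1 of −1.02 ± 0.26 and Col5a3 of 1.06 ± 0.38. Without the CCl4 1-week NC array these were −0.55 for Col1a1, −0.55 for Col1a2, −0.57 for Col3a1 and 1.20 for Col5a3, the first 3 smaller in size by over 1.5 times. Limma called 0 of the 7 chains there (smallest adjusted p = 0.133), against 1.08% of features. The median over the chains was −0.59, and it was −1.38 when CCl4 1-week miR-29a was left out and −0.16 when CCl4 1-week NC was. Under TAA, Col3a1 had −0.91 ± 0.26, Col1a1 −0.54 ± 0.42, Col1a2 −0.30 ± 0.29 and Col5a3 0.47 ± 0.38, with 0 chains called (smallest adjusted p = 0.111) and 0% of features. Without TAA 1-week NC these were −1.05, −0.87, −0.51 and −0.15, so the direction of Col5a3 turned. Without the TAA 1-week miR-29a array, which leaves 1 array at 1 week, Col27a1 was at 2.25 under TAA. Whether the weeks differed more under one agent was tested by the agent by week term, which was 0.77 ± 0.60 for Col1a1, 0.75 ± 0.41 for Col1a2 and 0.11 ± 0.37 for Col3a1. Without CCl4 1-week NC it was 0.014, 0.25 and −0.33, so the Col1a1 value rests on that array. With all arrays it called 0 of the 7 chains, against 9.84% of features. Without the TAA 1-week NC array the term was −2.92 for Col27a1.

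The ratio of 2 chains on 1 array is untouched by any scaling between arrays, and was examined after the levels had been seen. The log2 ratio of Col5a3 to Col1a1 signals was −0.53 and 0.65 on the CCl4 1-week arrays and 1.39 and 2.07 on the TAA 1-week arrays (NC, then miR-29a). On the 2-week arrays it lay between 2.10 and 2.84, above all 4 of 1 week, though the gap between the weeks, 0.026, is less than the error of 1 spot. The pair was taken because one chain had been seen higher and the other lower, so the separation is no separate evidence. The ratio of Col5a3 to Col3a1 likewise ran from −1.69 to 0.049 at 1 week and from 0.26 to 1.1 at 2 weeks. The ratio of Col1a1 to Col1a2, the partners of type I collagen, moved little, from −2.02 to −1.49 over the 8 arrays. Its highest value was that of CCl4 1-week NC, and the 4 arrays of 2 weeks lay between −2.02 and −1.99. The ratio of Col3a1 to Col1a1 ran from 1.16 on CCl4 1-week NC to 2.16 on TAA 1-week NC, with 1.70 to 1.83 at 2 weeks. Only its change between arrays can be read, not its size.

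**Figure D3:**
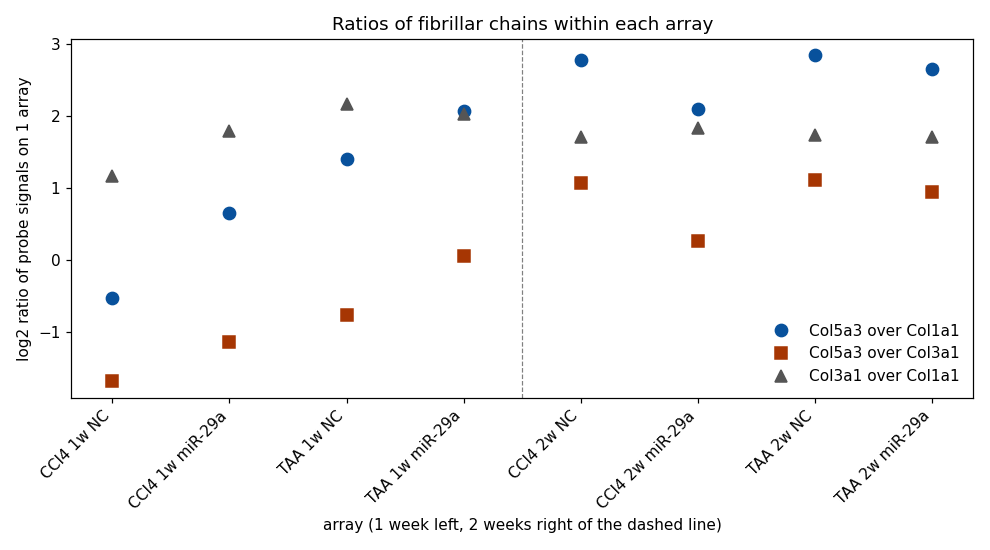
Log2 ratio of the probe signals of 2 chains on the same array, for 3 pairs of chains, with the 1-week arrays on the left and the 2-week arrays on the right. Col5a3 over Col1a1 runs from −0.53 to 2.07 at 1 week and from 2.10 to 2.84 at 2 weeks, while Col3a1 over Col1a1 lies between 1.70 and 1.83 at 2 weeks.

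The arrays of miR-29a and NC were compared to ask whether the injected microRNA altered collagen messenger RNA. The means over 4 pairs were near 0 for most chains. Col1a2 was at −0.12 ± 0.25, Col3a1 at −0.098 ± 0.18, Col5a1 at −0.14 ± 0.18, Col5a2 at 0.050 ± 0.34 and Col5a3 at 0.0011 ± 0.28. The 95% interval for Col1a1 ran from −1.02 to 0.53, a fold between 0.494 and 1.44, and that for Col3a1 from −0.54 to 0.35, a fold between 0.687 and 1.27. Col27a1 was at 0.87 ± 0.66, at 0.37 without TAA 1-week NC and at 0.0014 without the TAA 1-week pair, so its mean rests on that pair, whose NC spot was not well above background. Limma called 0 of the 7 chains (all adjusted p = 1), against 0% of features, and 0 were at an unadjusted p under 0.05, against 2.83%.

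The pairs went different ways. In the CCl4 1-week pair all 7 chains were below 0, where 46.3% of all features were. Col1a1 was at −1.38 and Col5a2 at −1.14, past 2-fold lower, as were 1.79% of features, while Col1a2 was at −0.87, Col3a1 at −0.76, Col5a1 at −0.50, Col27a1 at −0.45 and Col5a3 at −0.21. The summed mesothelial markers were 16.4 on the NC array of this pair and 2.47 on its miR-29a array. Their part in the difference was not tested. Each of these values compares 1 array with another and has no replicate behind it.

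In the CCl4 2-week pair Col1a1 and Col1a2 were at −0.022 and −0.0033, less than the error of 1 spot, and Col5a3 was at −0.69. In the TAA pairs Col1a1 was at 0.25 (1 week) and 0.18 (2 weeks), Col1a2 at 0.19 in both, and Col3a1 at 0.11 and 0.15. Col5a3 was at 0.93 in the TAA 1-week pair, and Col27a1 was not well above background with NC and at 0.33 with miR-29a, at least 9.92-fold higher than the detection floor. The NC array of that pair is the one with the neutrophil marker sum of 313, and the part of immune cells in these 2 differences was not tested. Without the CCl4 1-week pair the mean of Col1a1 was 0.13, that of Col1a2 0.12 and that of Col3a1 0.12, so their direction turned. Without the CCl4 1-week NC array alone they were 0.14, 0.16 and 0.082.

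**Figure D4:**
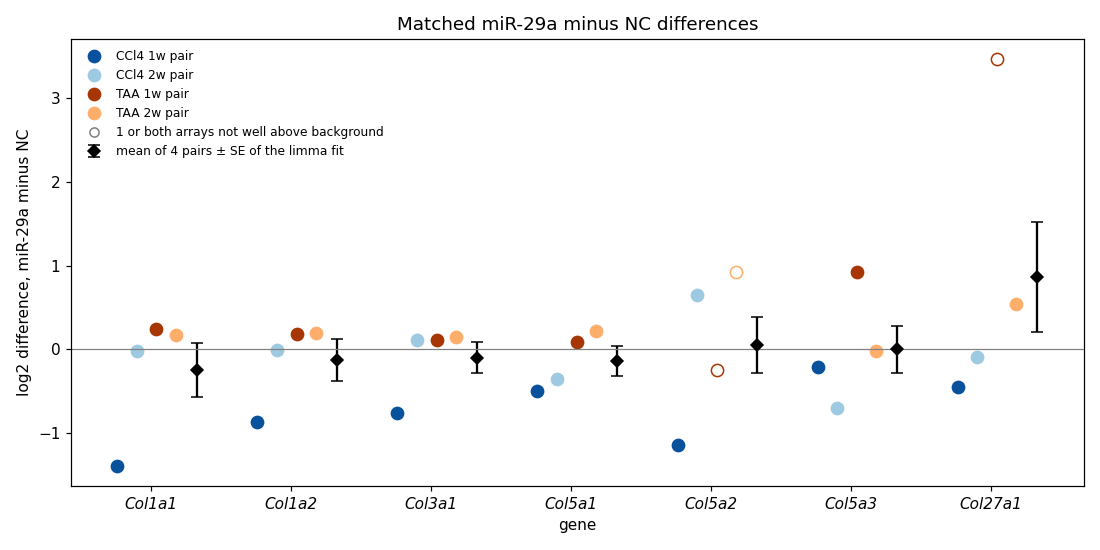
Difference of miR-29a minus NC on the log2 scale for each chain, with 1 point per matched pair of arrays (open where 1 or both arrays were not well above background) and a diamond for the mean of 4 pairs ± SE of the limma fit. The CCl4 1-week points of all 7 chains lie below 0, from −1.38 to −0.21, and the TAA 1-week point of Col27a1 lies at 3.46.

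An interaction term tested whether TAA and CCl4 livers differed in their response to miR-29a. The difference under TAA minus that under CCl4 was above 0 for all 7 chains, as for 56.8% of all features, from 0.46 ± 0.36 (Col3a1) to 2.27 ± 1.05 (Col27a1), with 0.92 ± 0.58 for Col1a1. Without CCl4 1-week NC the value was 0.20 for Col1a1, 0.086 for Col1a2, 0.13 for Col3a1 and 0.0098 for Col5a2. Limma called 0 of the 7 (all adjusted p = 1), against 0% of features. Without the CCl4 1-week NC array the median over the chains was 0.20, and without CCl4 2-week NC it was 1.16, against 0.62 with all arrays. For dependence on the week, limma called 0 of 7 chains, against 0% of features, and Col5a2 had 1.48 ± 0.37. It was the one chain at an unadjusted p under 0.05, against 1.92% of features, and 2 of the arrays behind its value were not well above background for it.

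TAA was set against CCl4 to compare the injury models. Col5a3 was the chain with the largest difference, 0.85 ± 0.28, above 0 in 4 of 4 pairs, as for 10.9% of features. The remaining chains lay between −0.26 ± 0.34 (Col5a2) and 0.15 ± 0.18 (Col3a1). Limma called 0 of 7 chains, against 0% of features, with an adjusted p of 0.135 for Col5a3, the smallest of the 7. At 1 week alone, Col5a3 had 1.15 ± 0.38 (limma adjusted p = 0.0648), Col1a1 −0.52 ± 0.42 and Col1a2 −0.51 ± 0.29, and limma called 0 of 7 chains, against 35.7% of features. Without CCl4 1-week NC the 1-week values were 1.29 for Col5a3, 0.24 for Col1a1 and −0.015 for Col1a2, so that of Col1a1 turned in sign. At 2 weeks Col5a3 had 0.56 ± 0.38 and 0 of 7 chains were called, against 0% of features.

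The 1-week calls depended on the scaling. With each array's median in place of its 75th percentile, the median of all features moved by −0.59 at 1 week and by −0.39 over both weeks. Then 3 chains were called at 1 week, Col1a1 at −1.12, Col1a2 at −1.11 and Col5a1 at −0.80 (limma adjusted p = 0.0384, 0.0121 and 0.0169). Of all 18534 features, 11796 were called with it. That scaling moves every feature by the same shift, so the order of the features is the same under both. Col5a3 was called with normexp background correction (0.97, limma adjusted p = 0.0405), where 8241 of all 18534 features were called. It was also called with quantile normalization (1.39, limma adjusted p = 0.0389), where 5849 were. Without TAA 1-week NC it was at 1.77 and Col27a1 at 2.42. Without CCl4 1-week miR-29a, Col1a1 was at −1.28 and Col1a2 at −1.01. Each of these fits left 1 array for a toxin at 1 week.

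Over the 8 arrays the chains fell into a set that moved together and a set that did not. Col1a1 and Col1a2 had a Pearson correlation of 0.99 (n = 8 arrays), Col1a1 and Col3a1 of 0.90, and Col1a2 and Col3a1 of 0.87. Without CCl4 1-week NC these were 0.96, 0.97 and 0.88 (n = 7). Col5a1 and Col5a2 had 0.84 and 0.78 with Col1a1, and 0.50 and 0.46 without that array. Col5a3 and Col27a1 had −0.49 and −0.33 with Col1a1 and 0.68 with each other, which became −0.16, −0.26 and 0.66 without it. All points share 1 slide and the scaling of each array, so these values are a description.

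The genes whose profile over the 8 arrays was most like that of a chain were sought among 16203 features well above background on all arrays. For Col1a1 the named ones were Rbm14, an RNA-binding coactivator (r = 0.93), Fstl1, a secreted follistatin-like protein (0.91), the kinase gene Map3k13 (0.91) and Ltbp3, which binds latent TGF-beta (0.91). All peaked on CCl4 1-week NC, and without that array they had from 0.63 (Fstl1) to 0.79 (Ltbp3). For Col27a1 they included Gm4425 (0.99) and Tnk2, a tyrosine kinase (0.97). The mean profile of the 7 chains was most like that of Cavin1, a caveola coat protein (0.93).

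Other genes of the collagen pathway were taken from lists of enzymes, partners and regulators. Limma called 0 of them for 2 weeks against 1 week, for miR-29a against NC and for TAA against CCl4 over both weeks. Of all features, 56% lay above 0 at 2 weeks. Among 16 measured genes of procollagen folding and modification, 9 lay below 0 at 2 weeks (median −0.057). They included P4ha1, a prolyl hydroxylase subunit, at −0.45 ± 0.25 and Serpinh1, the collagen chaperone HSP47, at −0.25 ± 0.21. Of 9 genes of propeptide removal and cross-linking 5 lay below 0 (median −0.11), with Pcolce, an enhancer of propeptide cleavage, at −0.39 ± 0.17 in 4 of 4 pairs. All 4 measured fibril-associated collagens lay below 0 (median −0.15), from −0.46 ± 0.35 (Col20a1) to −0.072 (Col14a1). This did not hold within each agent, as 3 of these 4 lay below 0 under CCl4 (median −0.28) and 1 under TAA (median 0.054). Of the 16 folding genes 12 lay below 0 under CCl4 and 6 under TAA, and of the 9 cross-linking genes 6 and 5.

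Over both agents, more of the measured regulators of fibrils and of collagen transcription lay below 0 at 2 weeks than above it. Of 9 fibril-regulating matrix proteins 6 lay below 0 at 2 weeks (median −0.22), among them Postn, the matrix protein periostin, at −0.65 ± 0.16 in 4 of 4 pairs. Of 12 genes of collagen transcription and signalling 9 lay below 0 (median −0.22). Ccn2, whose product acts downstream of TGF-beta, had −1.18 ± 0.32 and Cebpb, a transcription factor, −0.75 ± 0.21, both in 4 of 4 pairs. Among 8 collagen receptors and uptake genes 5 lay below 0 (median −0.20), with Ddr1, a receptor kinase for collagen, at −0.97 ± 0.30. Timp1, an inhibitor of matrix proteases, was at −1.0 ± 0.55 among 6 protease and inhibitor genes with a median of −0.18. Its level was −0.59 and 0.027 on the 1-week NC arrays and between −2.83 and −1.96 on all others. By agent the counts parted. Under CCl4, 9 of 9 fibril-regulating, 9 of 12 transcription, 4 of 8 receptor and 5 of 6 protease genes lay below 0. Under TAA 4, 6, 5 and 1 did. The medians were −0.56, −0.50, 0.038 and −0.84 under CCl4 and 0.016, 0.012, −0.22 and 0.27 under TAA. Values without the CCl4 1-week NC array are not given for any of the lists.

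With miR-29a, P4ha1 was at −0.46 ± 0.25, Loxl2, a cross-linking oxidase, at −0.36 ± 0.30 and Ddr1 at −0.77 ± 0.30. Each was above 0 in 1 of 4 pairs. Crtap, part of the prolyl 3-hydroxylase complex, was at −0.30 ± 0.17, below 0 in 4 of 4 pairs, as were 5.69% of all features. Loxl3, of the same list as Loxl2, was at 0.28 ± 0.21. Of the 16 folding genes 9 lay above 0 (median 0.064), as did 4 of 9 cross-linking and 3 of 8 receptor genes, against 57.1% of all features. P4ha1 differed most in the CCl4 1-week pair, −0.67 with NC and −2.02 with miR-29a. Ddr1 was highest on the 1-week NC arrays, at −0.94 (CCl4) and −0.59 (TAA). Loxl2 was higher with miR-29a in the TAA 2-week pair, at −0.14 against −0.83. Itga11, a collagen-binding integrin chain, was well above background on only 4 arrays, 1 of them with NC, and its difference is not given. At 1 week, TAA against CCl4, limma called 7 of the 64 measured genes of these lists, 10.9%, against 35.7% of all features. Higher under TAA were Col20a1 (2.09 ± 0.20, adjusted p = 0.00451), the integrin chain Itga10 (1.83 ± 0.26, adjusted p = 0.00679) and the inhibitory collagen receptor Lair1 (1.27 ± 0.28, adjusted p = 0.0219). Lower under TAA were Mmp2, a gelatinase (−1.84 ± 0.20, adjusted p = 0.0047), Sec23a (−0.91 ± 0.25) and Mia2 (−0.77 ± 0.18), both of the export of secreted proteins, and P4hb, the other subunit of prolyl 4-hydroxylase (−0.63 ± 0.16). The median scaling shift given above applies to these values too. The agent by week term of limma was called for 3 of the 64 genes, 4.69%, against 9.84% of features. They were Mmp2 (3.11 ± 0.28, adjusted p = 0.0266), Fmod, the fibril-binding fibromodulin (2.45 ± 0.41, adjusted p = 0.0329), and Col20a1 (−1.62 ± 0.29, adjusted p = 0.0344). Mmp2 levels were −0.47 and −1.20 on the CCl4 1-week arrays and −2.55 and −2.80 on the TAA 1-week arrays, against −2.01 and −2.22 under CCl4 and −0.82 and −0.85 under TAA at 2 weeks. It was not well above background on TAA 1-week miR-29a, and Fmod was not on either TAA 1-week array, so their values there are no exact levels.

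Markers of the cells known to make these chains moved as follows. Acta2, smooth muscle actin of myofibroblasts, was at −1.42 ± 0.24 at 2 weeks and Tagln at −0.76 ± 0.21, both in 4 of 4 pairs, and limma called neither. Des, the third measured marker of that list, was at 0.12 ± 0.33, above 0 in 2 of 4 pairs, and well above background on 4 arrays. Acta2 was highest on CCl4 1-week miR-29a (1.22), not on CCl4 1-week NC (−0.063) where Col1a1 was highest. The summed level of the 3 measured myofibroblast and smooth muscle markers of 8 ran from 7.51 to 12.2 at 1 week and from 4.33 to 8.09 at 2 weeks, so the weeks overlapped. That of the 6 portal fibroblast markers of 9 ran from 6.72 to 10.2 and from 5.65 to 6.63, so 6.72 and 6.63 barely part the weeks. Their mean log2 level overlapped, at −0.87 on TAA 1-week miR-29a and between −0.86 and −0.71 on the 2-week arrays. Of the remaining portal markers Eln and Gli1 were well above background on 1 array each. The 10 hepatic stellate cell markers ran from 58.6 to 100.1 at 1 week and from 80.5 to 107.8 at 2 weeks, with the lowest sum on TAA 1-week NC. For 2 weeks minus 1 week 9 of the 10 had a mean above 0 (median 0.19), as did 56% of all features. Under CCl4 5 of the 10 lay above 0 (median 0.013) and under TAA 9 (median 0.54). Over both agents all 6 measured portal fibroblast markers lay below 0 (median −0.41), with 6 below 0 under CCl4 and 5 under TAA. Of the 11 mesothelial markers, Upk1b, Lrrn4, Bnc1 and Podxl were well above background on 1 array each. The part of these cell types in the collagen differences was not tested.

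**Figure D5:**
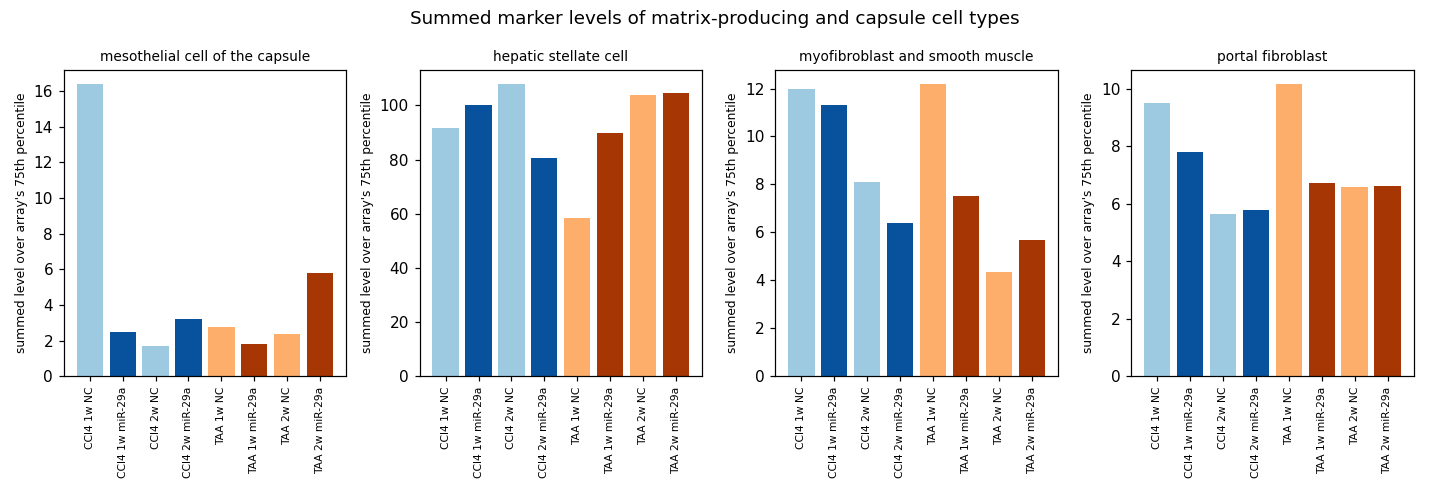
Summed linear level of the measured markers of 4 cell types on each array, relative to the array's 75th percentile, with 1 bar per array and axes from 0. The mesothelial sum is 16.4 on CCl4 1-week NC and 1.68 to 5.81 on the other arrays, while the stellate cell sum lies between 58.6 and 107.8.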

How the data were processed

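Total liver RNA was labelled with Cy3 and hybridised to 1 one-colour Agilent array per group, per the labels' protocols. The deposited intensity values are spot signals from Agilent Feature Extraction 10.10.1.1, background-subtracted and detrended with no scaling between arrays, per the file headers. Its deposited flags and p-values against background mark spots well above background. The authors also deposited log2 values, which equalled the log2 processed signal minus 1 constant per array within 0.01 for 99.8% of probes.

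Outlier-marked and control spots were left out. The array's 75th percentile was subtracted from log2 signals, and the brightest probe per gene was kept. Limma 3.58.1 in R 4.3.3 fitted agent, week and oligonucleotide additively, with 4 residual degrees of freedom, over all 18534 features, or with 1 interaction, with Benjamini-Hochberg adjustment at 0.05. The fit was tested on simulated data. Gene names came from the files and RefSeq (GRCm38.p6).

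Named genes were all 7 chains, the 3 pathway genes of each list with the largest absolute difference, those called, and those most alike in profile; the text gives part of them. The members and lists were chosen with earlier results of these data known.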

Additional observations from a re-analysis of the deposited data

Results flagged for a closer look

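In 21 sets of 4 matched differences (7 chains in 3 comparisons), the most extreme pair was set against the other 3, and 5 stood apart by Dixon's criterion. Chance marks about 1 set in 20 where sets are independent. These sets share arrays and hold chains that move together, so 1 odd array counts several times and the 5 cannot be set against that rate. For Col1a1 it was the pair that holds the CCl4 1-week NC array each time. Its TAA minus CCl4 difference was −1.34 between the 1-week NC arrays (0.15 to 0.35 in the others), its 2-week minus 1-week difference −1.99 in the CCl4 NC pair (−0.63 to −0.50) and its miR-29a difference −1.38 in the CCl4 1-week pair (−0.022 to 0.25). For Col3a1 the miR-29a difference was −0.76 in the CCl4 1-week pair (0.11 to 0.15). For Col27a1 the 2-week minus 1-week difference was −0.94 in the TAA miR-29a pair (1.53 to 1.98).

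Of 21 interactions of single chains looked at, 5 had both pairs of 1 group on one side of 0 and both of the other group on the opposite side. The share of all features with such a split is not given, so the count is a description only. Limma's interaction of miR-29a with agent was 0.92 for Col1a1, 0.62 for Col1a2, 0.58 for Col5a1 and 2.27 for Col27a1, and that with week was 1.48 for Col5a2. All 5 had an adjusted p of 1. Without CCl4 1-week NC they were 0.20, 0.086, 0.39, 2.54 and 1.20. Some signs behind these splits rest on differences smaller than the error of 1 spot. These were −0.022 (Col1a1), −0.0033 (Col1a2) and −0.084 (Col27a1) in the CCl4 2-week pair and 0.087 (Col5a1) in the TAA 1-week pair. Both TAA pairs of Col5a2 and the TAA 1-week pair of Col27a1 held a spot not well above background.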

How the results depend on the processing

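Of the values of single chains recomputed under the other settings, 1027 kept their sign and their side of the threshold, 83 turned in sign and 11 newly passed the threshold. Of the counts of chains called 156 stayed within 1.5 times and 7 moved, of the medians over the chains 158 stayed and 5 moved, and of 336 recomputed differences of single pairs 56 moved by more than the spread between pairs. For 2 weeks minus 1 week no chain turned in sign and none was called under any setting run. No slide block was run, since 1 slide held all arrays. The labels give no replicate numbers, and with a block for each of the 4 matched pairs limma called 0 features for miR-29a minus NC (1112 at an unadjusted p under 0.05). The authors' deposited log2 values, no filter and the mean over probes turned the sign of 0 of 7 chains. They could hardly do so. Each chain had 1 probe, all 7 passed the filter, and the deposited values are nearly the same signals minus a constant. The stricter filter, well above background on all arrays, left out Col5a2 and Col27a1 and turned 0 of the other 5, whose differences a filter cannot move. These settings are among those counted above, so part of the values that kept their sign was fixed in advance.

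With each array's median as the scale, the median of all features moved by −0.39 for TAA minus CCl4, by −0.59 for it at 1 week and −0.19 at 2 weeks, by 0.41 in the agent by week term, by −0.22 and 0.19 for 2 weeks minus 1 week under CCl4 and TAA, and by −0.14 in the miR-29a by week term. Counts of called features moved with it: for TAA minus CCl4 from 0 to 5439 (6 with normexp and 11 with quantile normalization), and at 1 week from 6620 to 11796, of which 2343 and 1119 were higher under TAA. For the agent by week term they went from 1824, of which 1028 were positive, to 3451, of which 2909 were, and to 3418 with normexp. Under CCl4 they went from 200 to 308 (0 with quantile normalization) and under TAA from 0 to 762 (2543 with normexp).

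Single values that turned, or newly passed, were these. With normexp, TAA minus CCl4 at 1 week had 1 chain called instead of 0, against 8241 of 18534 features. TAA minus CCl4 was then 0.012 for Col5a1. The miR-29a minus NC difference was then −0.028 for Col5a3. 2 weeks minus 1 week under TAA was then −0.030 for Col5a1. TAA minus CCl4 at 1 week was then 0.055 for Col5a2 and 0.97 for Col5a3. With quantile normalization, TAA minus CCl4 at 1 week had 1 chain called instead of 0, against 5849 features. TAA minus CCl4 was then 0.066 for Col1a2 and −0.086 for Col27a1. The miR-29a minus NC difference was then −0.017 for Col5a3. The agent by week term was then −0.062 for Col3a1 and 0.26 for Col5a2. TAA minus CCl4 at 1 week was then 1.39 for Col5a3. With median scaling, TAA minus CCl4 at 1 week had 3 chains called instead of 0, against 11796 features. TAA minus CCl4 was then −0.24 for Col3a1 and −0.29 for Col27a1. The miR-29a minus NC difference was then −0.043 for Col5a3. The agent by week term was then 0.35 for Col5a2. TAA minus CCl4 at 1 week was then −0.80 for the median of the chains, −1.12 for Col1a1, −1.11 for Col1a2, −0.50 for Col3a1 and −0.80 for Col5a1. The miR-29a by week term was then −0.0011 for Col5a1. Without the 1-week NC pair TAA minus CCl4 was 0.26 for Col1a1, 0.16 for Col1a2 and 0.16 for Col5a1. Without the 1-week miR-29a pair TAA minus CCl4 was −0.75 for Col27a1. Without the 2-week NC pair TAA minus CCl4 was 0.023 for Col5a1. Without the CCl4 1-week pair miR-29a minus NC was 0.13 for Col1a1, 0.12 for Col1a2 and 0.12 for Col3a1. Without the CCl4 2-week pair miR-29a minus NC was −0.15 for Col5a2. Without the TAA 1-week pair miR-29a minus NC was −0.31 for Col5a3. Without the TAA 2-week pair miR-29a minus NC was −0.24 for Col5a2. The cause was not tested beyond the shift that the median scale brings.

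With 1 array left out, chains newly passed the threshold for TAA minus CCl4 at 1 week (without CCl4 1-week miR-29a, or without TAA 1-week NC). They also did in the agent by week term (without TAA 1-week NC) and under TAA (without TAA 1-week miR-29a). Each of these fits left 1 array in a group, so only effect sizes are given. For TAA minus CCl4, Col1a1 ran from −0.34 without TAA 2-week miR-29a to 0.25 without CCl4 1-week NC (its sign also turned without TAA 1-week NC). Col1a2 ran from −0.31 without TAA 2-week miR-29a to 0.14 without CCl4 1-week NC (its sign also turned without TAA 1-week NC). Col5a1 ran from −0.14 without TAA 2-week miR-29a to 0.14 without CCl4 1-week NC (its sign also turned without TAA 1-week NC, or without TAA 2-week NC). Col5a2 ran from −0.56 without CCl4 1-week miR-29a to 0.030 without CCl4 1-week NC. Col3a1 ran from −0.0016 without CCl4 1-week miR-29a to 0.33 without CCl4 1-week NC. Col27a1 ran from −0.70 without TAA 1-week miR-29a to 0.60 without TAA 1-week NC (its sign also turned without CCl4 1-week miR-29a). For miR-29a minus NC, Col1a1 ran from −0.47 without TAA 1-week NC to 0.14 without CCl4 1-week NC. Col1a2 ran from −0.30 without TAA 2-week miR-29a to 0.16 without CCl4 1-week NC. Col3a1 ran from −0.17 without TAA 2-week miR-29a to 0.082 without CCl4 1-week NC (its sign also turned without CCl4 1-week miR-29a). Col5a1 ran from −0.28 without TAA 2-week miR-29a to 0.0042 without CCl4 1-week NC. Col5a3 ran from −0.30 without TAA 1-week miR-29a to 0.25 without CCl4 2-week NC (its sign also turned without CCl4 1-week NC, or without TAA 1-week NC, or without TAA 2-week NC). Col5a2 ran from −0.18 without TAA 2-week NC to 0.35 without CCl4 1-week miR-29a (its sign also turned without CCl4 2-week NC, or without CCl4 2-week miR-29a, or without TAA 2-week miR-29a). For the agent by week term, Col3a1 ran from −0.33 without CCl4 1-week NC to 0.55 without CCl4 1-week miR-29a (its sign also turned without CCl4 2-week NC, or without TAA 1-week NC, or without TAA 2-week miR-29a). Col5a2 ran from −0.85 without CCl4 1-week NC to 0.73 without CCl4 1-week miR-29a (its sign also turned without CCl4 2-week miR-29a, or without TAA 1-week NC, or without TAA 2-week NC). Col27a1 ran from −2.92 without TAA 1-week NC to 0.54 without TAA 1-week miR-29a. Col5a3 ran from −1.21 without TAA 1-week NC to 0.024 without TAA 1-week miR-29a. For 2 weeks minus 1 week under CCl4, Col5a2 ran from −1.38 without CCl4 1-week miR-29a to 0.20 without CCl4 1-week NC. The median of the chains ran from −1.38 without CCl4 1-week miR-29a to −0.16 without CCl4 1-week NC. For TAA minus CCl4 at 1 week, the median of the chains ran from −0.45 without CCl4 1-week miR-29a to 0.54 without CCl4 1-week NC. Col1a1 ran from −1.28 without CCl4 1-week miR-29a to 0.24 without CCl4 1-week NC. Col5a1 ran from −0.45 without CCl4 1-week miR-29a to 0.032 without CCl4 1-week NC. Col5a2 ran from −1.02 without CCl4 1-week miR-29a to 0.56 without CCl4 1-week NC. Col1a2 ran from −1.01 without CCl4 1-week miR-29a to −0.015 without CCl4 1-week NC. Col3a1 ran from −0.35 without CCl4 1-week miR-29a to 0.54 without CCl4 1-week NC (its sign also turned without TAA 1-week miR-29a). Col27a1 ran from −1.03 without TAA 1-week miR-29a to 2.42 without TAA 1-week NC (its sign also turned without CCl4 1-week miR-29a). Col5a3 ran from 0.53 without TAA 1-week miR-29a to 1.77 without TAA 1-week NC. For the miR-29a by week term, the median of the chains ran from −0.17 without CCl4 1-week NC to 0.78 without TAA 1-week NC. Col1a1 ran from −0.16 without CCl4 1-week NC to 1.45 without TAA 1-week NC. Col1a2 ran from −0.17 without CCl4 1-week NC to 1.03 without TAA 1-week NC. Col5a1 ran from −0.20 without CCl4 1-week NC to 0.47 without TAA 1-week NC (its sign also turned without TAA 2-week miR-29a). Col27a1 ran from −2.98 without CCl4 1-week miR-29a to 0.42 without TAA 1-week miR-29a. For the miR-29a by agent term, Col5a2 ran from −0.028 without CCl4 1-week miR-29a to 1.20 without CCl4 2-week miR-29a. The median of the chains ran from 0.20 without CCl4 1-week NC to 1.16 without CCl4 2-week NC. For TAA minus CCl4 at 2 weeks, Col27a1 ran from −1.13 without CCl4 2-week miR-29a to 0.14 without CCl4 2-week NC. Col5a2 ran from −0.87 without TAA 2-week miR-29a to 0.30 without TAA 2-week NC (its sign also turned without CCl4 2-week miR-29a). Col1a1 ran from −0.031 without TAA 2-week miR-29a to 0.53 without TAA 2-week NC. Col5a1 ran from −0.032 without TAA 2-week miR-29a to 0.44 without TAA 2-week NC. For 2 weeks minus 1 week under TAA, Col5a1 ran from −0.22 without TAA 2-week miR-29a to 0.25 without TAA 2-week NC (its sign also turned without TAA 1-week NC). Col5a3 ran from −0.15 without TAA 1-week NC to 1.09 without TAA 1-week miR-29a. Col27a1 ran from −1.21 without TAA 1-week NC to 2.25 without TAA 1-week miR-29a.

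One array per group limits every comparison, a lone array being taken to vary like the others. Signals near background limit Col5a2 and Col27a1.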
